A study of Rattus norvegicus with 24 samples.

Results

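Tmem176a and Tmem176b are a pair of neighbouring genes that encode related multi-span membrane proteins. They were found by gene name among the 26641 named loci of the messenger RNA table, which holds 42334 loci in all. Each name matched 1 locus, so the 2 genes give 2 loci. They were chosen by their measured levels: both were higher in every TBI library than in every sham library of the same region, so their TBI differences are given as a description, without a p-value. The messenger RNA was that of 2 regions, ipsilateral thalamus and perilesional cortex, of adult male Sprague-Dawley rats killed 3 months after the operation. TBI was a lateral fluid-percussion injury, in which a fluid pulse strikes the dura through a hole in the skull, and the sham-operated rats had the anesthesia and the craniectomy but no impact. There were 6 rats in each group, and both regions were sampled in the same 12 rats, which gave 24 libraries. By the study's methods, TBI rats were picked for a raised T2 signal around the lesion on MRI, so they stand for such cases and not for all injured rats.

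The proteins of Tmem176a and Tmem176b resemble the MS4A family, whose best-known member is the B cell antigen CD20, and conduct cations across intracellular membranes. Both are known from dendritic cells, macrophages and microglia, the resident macrophages of the brain. Tmem176b is known for holding back the inflammasome, a cytosolic complex that activates caspase-1 and interleukin-1, and for a part in the traffic of major histocompatibility complex (MHC) class II molecules. Both genes are also expressed by lymphoid cells of the type that makes interleukin-17. In bulk tissue, a higher level can come from more cells that carry a transcript or from more transcript per cell, and these cannot be told apart here.

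In the deposited annotation the Tmem176a locus (XLOC_027685) lay on chromosome 4 from 143146280 to 143150058, a span of 3778 bases. The Tmem176b locus (XLOC_028898) lay on chromosome 4 from 143138342 to 143145860, a span of 7518 bases. The 2 loci were 420 bases apart. The submitters' processing notes name the build Rnor_5.0, and the study's methods name RGSC3.4 for the alignment with Ensembl Rnor_5.0 as annotation, so the build of these positions is not settled. In the RefSeq annotation of the newer assembly GRCr8 the genes point away from each other. Tmem176b is on the minus strand and Tmem176a on the plus strand, and the starts used here are 556 bases apart. The RefSeq gene intervals, which include predicted transcripts, overlap there. Tmem176a runs from 79101946 to 79109499 and Tmem176b from 79097808 to 79105263. The start used for Tmem176a, at 79105819, lies downstream of the first base of its interval, and the sequence around that first base is not shown. The libraries were stranded, but whether strand was used in counting is not given in the sources used here, so fragments of overlapping transcripts may have been split between the genes.

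The sequence around the starts is shown because the levels of the genes ran together within the TBI groups, with limits given below. In the sham cortex rho of the pair was 0.89 too (adjusted p = 0.0444, exact permutation test). Whether the genes share regulation was not tested. Each window holds 250 bases before and 50 bases from the start, taken from RefSeq on GRCr8 and written 5′ to 3′ on the strand of its gene. The Tmem176a window is chr4:79105569-79105868 on the plus strand, and the Tmem176b window is chr4:79105214-79105513 on the minus strand. Capitals mark matches to 10 short motifs searched on both strands.
Tmem176a: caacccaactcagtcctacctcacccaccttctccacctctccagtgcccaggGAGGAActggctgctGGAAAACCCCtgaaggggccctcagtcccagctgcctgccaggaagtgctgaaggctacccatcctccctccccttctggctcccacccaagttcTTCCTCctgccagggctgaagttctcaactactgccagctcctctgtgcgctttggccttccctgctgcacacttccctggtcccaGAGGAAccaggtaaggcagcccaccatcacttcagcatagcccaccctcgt
Tmem176b: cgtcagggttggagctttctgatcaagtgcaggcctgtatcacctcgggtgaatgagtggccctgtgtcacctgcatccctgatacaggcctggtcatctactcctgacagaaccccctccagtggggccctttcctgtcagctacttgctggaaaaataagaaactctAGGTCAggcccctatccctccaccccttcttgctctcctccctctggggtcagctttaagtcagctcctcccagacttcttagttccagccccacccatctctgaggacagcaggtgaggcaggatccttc

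The Tmem176a window held 3 matches to GAGGAA, the core bound by PU.1 and other ETS factors of myeloid cells, with their first bases at -197, -87 (minus strand) and -1 counted from the start. It also held 1 match to the NF-kB motif at -182 on the minus strand. The Tmem176b window held 1 match to AGGTCA, the core site of nuclear receptors, at -81. GAGGAA occurred in 27.6% of 33469 windows of the same length, the NF-kB motif in 1.53% and AGGTCA in 16.2%. No match to the other motifs was found in either window. These were TATAAA (14.2% of windows), CCAAT (37.5%), GGGCGG (33.1%), the interferon-stimulated response element (3.92%), TGANTCA (7.33%), TTCNNNGAA (8.87%) and CACGTG (6.42%). No matches overlapped. The GC content was 60.7% for Tmem176a and 56% for Tmem176b, against a median of 51.7% over all windows. A match describes the letters of the window and does not show that a factor binds there.

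The authors scaled the fragments counted at a locus by 1 factor per library, and these deposited values are called normalized counts here. The libraries held between 30568927 and 54608922 fragments. Behind each Tmem176a value stood 1058 to 6131 fragments, which gives a counting error of 1.28% to 3.07%. Behind each Tmem176b value stood 2329 to 13503 fragments, with a counting error of 0.861% to 2.07%. The spread between rats was wider, with coefficients of variation of 7.65% to 11.1% for Tmem176a and 4.79% to 9.53% for Tmem176b within groups. These errors cover counting alone. A list of 12 choroid plexus genes, such as Ttr, was summed in each library, and 6 libraries stood apart, with sums from 16686 to 357864 against at most 12211 in the other 18. These were rats 26 and 34 in sham cortex, rat 45 in TBI cortex, rats 34 and 50 in sham thalamus and rat 45 in TBI thalamus.

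Tmem176a was lowest in the sham cortex and highest in the TBI thalamus. In the sham cortex its normalized counts were 1234, 1205, 1382, 1362, 1182 and 1406 in rats 26, 32, 34, 38, 50 and 55 (1295 ± 99.1, mean ± SD, n = 6). In the TBI cortex they were 2084, 2375, 2346, 1897, 2266 and 1968 in rats 22, 24, 45, 52, 56 and 63 (2156 ± 202, n = 6). The lowest TBI cortex value, in rat 52, was 1.35 times the highest sham value, in rat 55, so the groups did not overlap. In the sham thalamus the values were 1879, 1893, 1721, 1519, 1449.8 and 1589.8 in the same order of sham rats (1675 ± 186, n = 6). In the TBI thalamus they were 3126, 3589.8, 3452, 3587, 4218 and 4096 in the same order of TBI rats (3678 ± 410, n = 6). Rats 56 and 63 were the highest there and rat 22 the lowest, and the lowest TBI value was 1.65 times the highest sham value.

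Tmem176b followed the same order at each step. In the sham cortex its normalized counts were 2733, 2482, 2793, 2704, 2703 and 2869 in rats 26, 32, 34, 38, 50 and 55 (2714 ± 130, n = 6). In the TBI cortex they were 4941, 5045, 5355, 4449.6, 4984 and 4423 in rats 22, 24, 45, 52, 56 and 63 (4866 ± 364, n = 6). Every TBI value lay above every sham value, the lowest by 1.54 times the highest sham value. In the sham thalamus the values were 3870.1, 3805, 3438, 3009, 3391 and 3239.8 in the same order of sham rats (3459 ± 330, n = 6). In the TBI thalamus they were 7713, 8963, 7999, 7856, 9291 and 9151 in the same order of TBI rats (8496 ± 714, n = 6). The lowest TBI thalamus value, in rat 22, was 1.99 times the highest sham value, in rat 26.

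**Figure D1:**
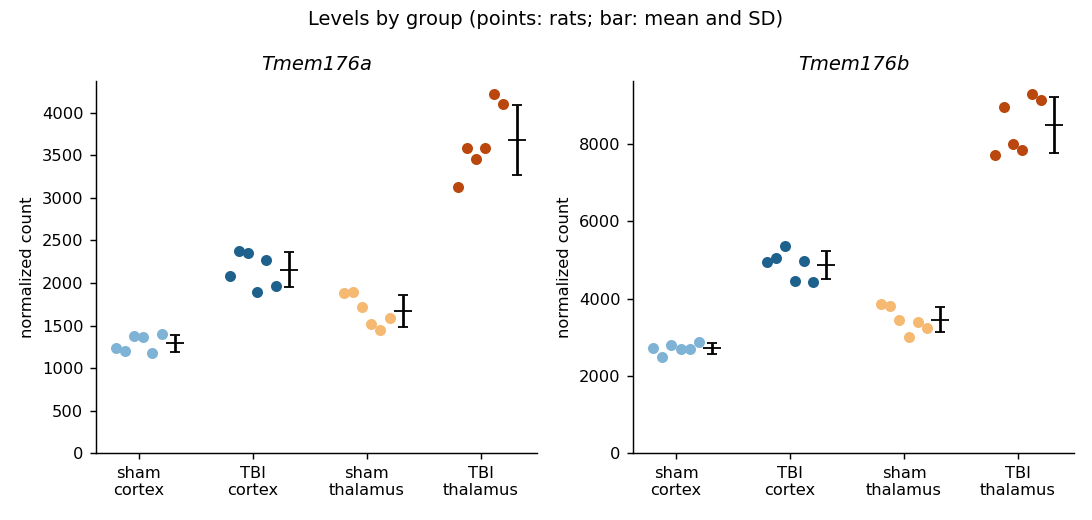
Normalized counts of Tmem176a (left) and Tmem176b (right) by group, with 1 point per rat, in order of rat number, and the mean ± SD of 6 rats beside the points. Both genes step up from sham cortex through sham thalamus and TBI cortex to TBI thalamus, where Tmem176a reaches 3126 to 4218 and Tmem176b 7713 to 9291.

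The order of the groups was sham cortex, sham thalamus, TBI cortex and TBI thalamus for both genes, and no neighbours in that order overlapped. The narrowest step for Tmem176a was from sham thalamus to TBI cortex, where the lowest TBI cortex value of 1897 in rat 52 and the highest sham thalamus value of 1893 in rat 32 differed by only 3.8 normalized counts, which is below the counting error of either. The narrowest step for Tmem176b was from sham cortex to sham thalamus, at 140 normalized counts between the highest and the lowest library. With TMM scaling, and with fragments scaled to the library total, none of these steps overlapped either, and in the narrowest the lowest value of the higher group was 1.016 times the highest of the lower group. The levels of the 2 genes were not compared with each other, because transcript lengths were not used here.

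The TBI difference on the scale of log2(normalized count + 1) was 0.73 for Tmem176a in the cortex (standard error 0.069), a fold of 1.66. It was 1.13 in the thalamus (standard error 0.084), a fold of 2.19. For Tmem176b the difference was 0.84 in the cortex (standard error 0.054), a fold of 1.79, and 1.30 in the thalamus (standard error 0.070), a fold of 2.46. Among the loci with a mean of at least 10, 662 of 15493 in the cortex and 311 of 15564 in the thalamus had a larger positive difference than Tmem176a, and 468 and 212 had a larger one than Tmem176b. Over all loci tested, the median difference was -0.01 in the cortex and -0.02 in the thalamus. Every TBI value lay above every sham value at 7.02% of the loci tested in the cortex and at 7.46% in the thalamus. The members were selected on this pattern, so nothing is read from their own lack of overlap. Without the 6 libraries high in choroid plexus genes, the differences of Tmem176a were 0.72 in the cortex and 1.11 in the thalamus, and those of Tmem176b were 0.83 and 1.31.

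The difference was larger in the thalamus than in the cortex for both genes. The thalamus difference minus the cortex difference was 0.40 on the log2 scale for Tmem176a (standard error 0.11) and 0.46 for Tmem176b (standard error 0.090). These values come from the contrasts that chose the genes and are given with no test. Within single sham rats, Tmem176a was 1.12 to 1.57 times as high in the thalamus as in the cortex (1.30 ± 0.197, n = 6), and within single TBI rats 1.47 to 2.08 times (1.72 ± 0.258, n = 6). The 2 ranges overlapped, since sham rats 26 and 32 at 1.52 and 1.57 exceeded TBI rats 22, 24 and 45 at 1.50, 1.51 and 1.47. For Tmem176b the thalamus held 1.11 to 1.53 times the cortex level in sham rats (1.28 ± 0.165, n = 6) and 1.49 to 2.07 times in TBI rats (1.76 ± 0.208, n = 6). Here only sham rat 32, at 1.53, exceeded the lowest TBI rat, rat 45 at 1.49.

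**Figure D2:**
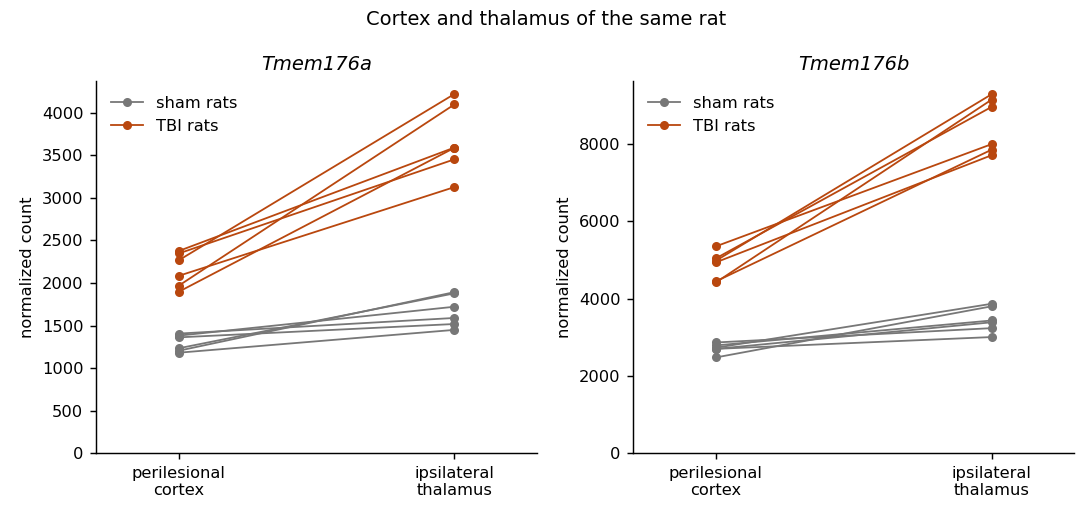
Normalized counts of Tmem176a (left) and Tmem176b (right) in the perilesional cortex and the ipsilateral thalamus, with a line for each of the 12 rats, gray for sham and orange for TBI. Every line rises to the thalamus, by 1.47 to 2.08 times for Tmem176a in TBI rats and by 1.12 to 1.57 times in sham rats.

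Rats with a high level in one region were not detectably those with a high level in the other. The correlation of cortex and thalamus over 6 rats was -0.20 (Pearson's r) for Tmem176a in sham rats, -0.04 in TBI rats, -0.47 for Tmem176b in sham rats and -0.10 in TBI rats. Spearman's rho was 0.03, 0.03, -0.20 and 0.03. No relation passed the two-sided exact permutation test, with an adjusted p of 0.924 for each Pearson's r and 1 for each rho over the 4 relations. Without the 2 rats farthest from the median of the cortex, r was -0.81, 0.46, 0.33 and -0.27, so its sign turned for Tmem176a in TBI rats and for Tmem176b in sham rats. With 6 rats, only strong relations can be detected.

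Within the TBI groups, the 2 genes ran together. The genes were chosen for a lack of overlap between groups, which also depends on the spread within groups. The rules were set with earlier results of these data known, so the p-values within groups are not from untouched values. In the TBI cortex, Pearson's r of Tmem176a and Tmem176b was 0.91 over 6 rats (adjusted p = 0.0278, two-sided exact permutation test over the 4 groups) and rho was 0.89 (adjusted p = 0.0444). With TMM scaling this r was 0.88 and no longer passed. In the TBI thalamus r was 0.86 (adjusted p = 0.0278, exact permutation test) and rho 0.94 (adjusted p = 0.0444). In the sham cortex r was 0.68 and did not pass (adjusted p = 0.0958, exact permutation test), while rho was 0.89 and did (adjusted p = 0.0444). In the sham thalamus r was 0.83 and rho 0.77, and neither passed (adjusted p = 0.0611 and 0.103, exact permutation test). Without the 2 libraries farthest from the median of Tmem176a, r was 0.72 in sham cortex, 0.60 in TBI cortex, 0.99 in sham thalamus and 0.71 in TBI thalamus, over 4 rats each, too few to reach the threshold. The smallest raw p that 6 rats allow is 0.00278. Whether r differed between groups was not tested.

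The ratio of Tmem176b to Tmem176a, in which the transcript lengths and the scaling of a library cancel when groups are compared, was higher in TBI. It was 2.10 ± 0.121 in sham cortex and 2.26 ± 0.0923 in TBI cortex, and 2.07 ± 0.134 in sham thalamus and 2.32 ± 0.135 in TBI thalamus (mean ± SD, n = 6 each). The ranges overlapped in both regions, at 1.99 to 2.29 against 2.12 to 2.37 in the cortex and 1.98 to 2.34 against 2.19 to 2.50 in the thalamus. Since the ratio is made of the values that chose the genes, it is given without a test. The highest sham ratios in both regions were those of rat 50, at 2.29 (cortex) and 2.34 (thalamus). In the thalamus the other 5 sham rats lay between 1.98 and 2.06.

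**Figure D3:**
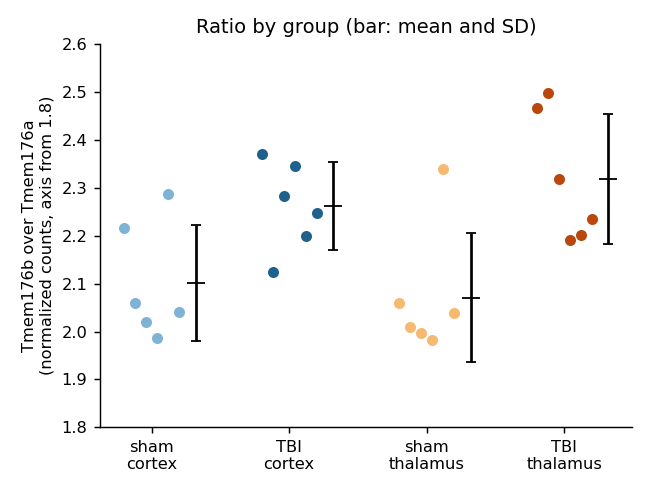
Ratio of the normalized counts of Tmem176b to those of Tmem176a in each library, by group, with the mean ± SD of 6 rats, on an axis that starts at 1.8. The TBI groups center on 2.26 and 2.32, above the sham groups at 2.10 and 2.07, with overlap between the groups in both regions.

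The genes with patterns most like those of the members are given as a description. Over the 24 libraries, which share 4 groups, the highest Pearson's r to Tmem176a among 15677 loci was that of Fcer1g (0.991), the common chain of Fc receptors. Tmem176b was next (0.990), followed by Laptm5 (0.989), Csf1r (0.987), Tnfaip8l2 (0.987), Pld4 (0.986), Npc2 (0.986) and Grn (0.984). For Tmem176b the highest were Npc2 (0.992), a lysosomal cholesterol carrier, Laptm5 (0.992), a lysosomal membrane protein of blood cells, Csf1r (0.991), the growth factor receptor of microglia, Tmem176a (0.990), Arl11 (0.988), Fcer1g (0.987), Grn (0.987) and Ctsz (0.987). Much of these values is the step between groups. For deviations from the group means, the highest r to Tmem176a were those of C1qb (0.875), Tyrobp (0.858), Fcer1g (0.840), Tmem176b (0.836) and the ribosomal gene Rps26 (0.836). For Tmem176b they were Laptm5 (0.899), Csf1r (0.897), Npc2 (0.858), Abhd4 (0.851) and Anxa3 (0.838), with Tmem176a in place 6. The complement gene C1qb, the adaptor Tyrobp and the receptor Csf1r are textbook genes of microglia.

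A list of 16 microglial genes, among them Aif1, Cx3cr1, P2ry12, Csf1r, C1qa and Tyrobp, was set beside the members. Its mean log2 level was 9.81 ± 0.041 in sham cortex, 10.43 ± 0.0932 in TBI cortex, 10.08 ± 0.171 in sham thalamus and 11.15 ± 0.147 in TBI thalamus (SD, n = 6 each). That order of groups is the one found for the members. The TBI difference of this mean was 0.63 in the cortex and 1.07 in the thalamus, against 0.73 and 1.13 for Tmem176a and 0.84 and 1.30 for Tmem176b. Its summed level ranged from 25153 to 27758 in sham cortex, 35022 to 40673 in TBI cortex, 27152 to 35789 in sham thalamus and 55409 to 69198 in TBI thalamus. None of the 16 genes was at 0 in all libraries. In the cortex 14 of the 16 rose with TBI and in the thalamus all 16, where 14.3% and 14.5% of all loci tested rose by limma. When the 6 libraries high in choroid plexus genes were left out, 12 and 15 rose. The part of the microglial transcripts in the levels of the members was not tested.

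The relation to these genes was also read within groups, with the same limit on the p-values as for the pair. Each of the 5 relations given here as passing lost its call with TMM scaling, at r of 0.87 to 0.90. In the TBI cortex, r to the microglial mean was 0.92 for Tmem176a (adjusted p = 0.0296, two-sided exact permutation test over 8 relations) and 0.91 for Tmem176b (adjusted p = 0.0378). In the TBI thalamus it was 0.90 for Tmem176a (adjusted p = 0.0378, exact permutation test) and 0.87 for Tmem176b (adjusted p = 0.0296). In the sham thalamus it was 0.90 for Tmem176b (adjusted p = 0.0296, exact permutation test) and 0.85 for Tmem176a (adjusted p = 0.087). In the sham cortex it was 0.26 and 0.01, and neither passed (adjusted p = 0.844 and 0.974, exact permutation test). The microglial mean itself varied little in the sham cortex, from 9.76 to 9.88. Spearman's rho was 0.83 to 0.94 in the other 3 groups, and none passed after adjustment, with 0.0667 as the lowest adjusted p by the exact permutation test. Without the 2 libraries farthest from the median of the microglial mean, r stood at 0.65 and 0.62 in the TBI cortex, 0.96 and 0.67 in the sham thalamus and 0.82 and 0.95 in the TBI thalamus, for Tmem176a and Tmem176b in turn.

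**Figure D4:**
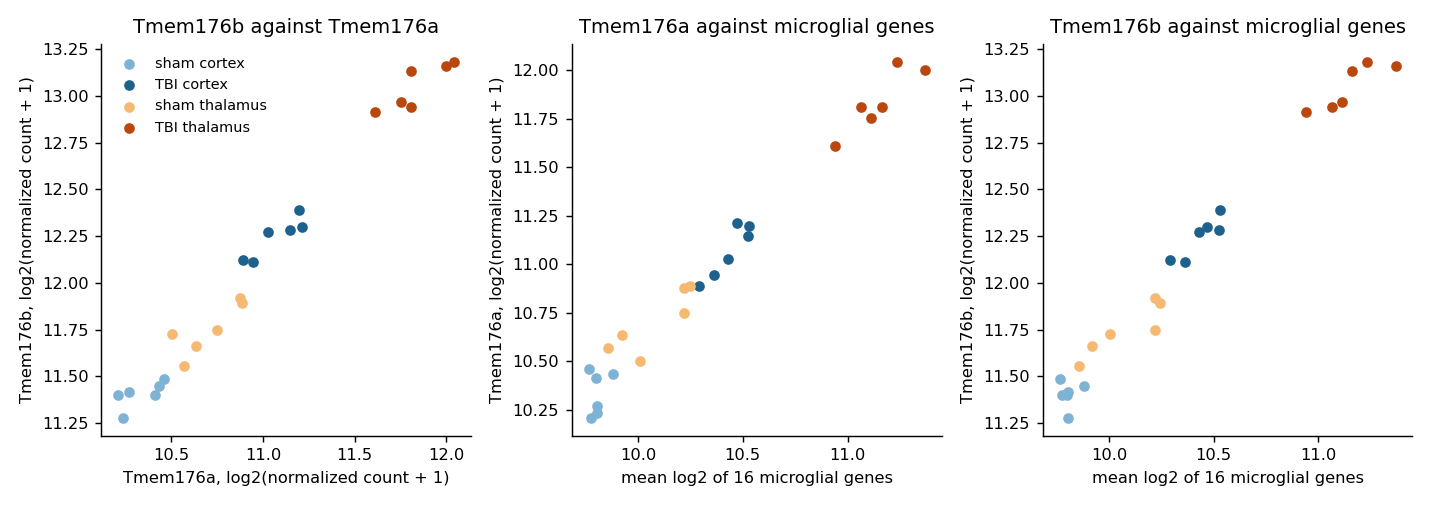
Tmem176b against Tmem176a (left), Tmem176a against the mean of 16 microglial genes (middle) and Tmem176b against that mean (right), all as log2(normalized count + 1), with 1 point per library and colors for the 4 groups. Within the TBI groups the points rise together, with r of 0.86 to 0.92, and in the sham cortex the microglial mean spans only 9.76 to 9.88.

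Other cell types were read from marker lists, for comparison with the members. The counts of rises stand beside 14.3% of all loci tested in the cortex and 14.5% in the thalamus. Of 9 activated microglia genes tested, 8 rose in each region (6 in the cortex without the 6 libraries high in choroid plexus genes), and the list's median log2 difference was 1.72 in the cortex and 2.61 in the thalamus. Of 7 perivascular macrophage genes tested, 4 rose in the cortex and 1 in the thalamus, with medians of 0.63 and 0.43 (2 and 2 without those libraries), and Cbr2 was at 0 in every library of the 2 sham groups and the TBI thalamus. Of the dendritic cell and monocyte list, 4 of 8 tested genes rose in the cortex and 2 of 7 did in the thalamus (2 and 2 without those libraries), and Flt3 fell in the latter. In that list Irf8 rose by 0.88 and 1.47 and Batf3 by 2.17 and 1.63. Zbtb46 (-0.08 and 0.01) and Itgae (-0.16 and 0.03), with group means of 384 to 745 and 151 to 199, passed in neither region. Xcr1, Ccr7 and Cd209a had group means of at most 4.44, 5.38 and 0.23, and Clec9a of at most 14.4. For T cells, 1 of 6 tested genes rose in the cortex (Cd4, which rat macrophages also express) and 2 of 3 in the thalamus (Cd4 and Cd8b). Of the chains of the T cell receptor complex, Cd3d and Cd3g had group means of at most 4.84 and 7.33 and Cd3e of 4.23 to 16.1, and the kinase gene Lck had means of 52.6 to 87.3. Of the B cell list only Cd22, also a gene of microglia, passed the filter, and it rose in both regions, while Cd79b, Ms4a1 and Pax5 had means of at most 4.99, 2.82 and 4.65.

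The remaining lists bear on the makeup of the tissue. Of 10 astrocyte genes, 5 rose in each region and 2 fell in the cortex, with median log2 differences of 0.23 and 0.35. Gfap, among those that rose, lay far above these medians (2.26 in both). Without the 6 libraries high in choroid plexus genes, 4 rose and 0 fell in the cortex, and 6 rose and 1 fell in the thalamus. Of 8 oligodendrocyte genes, 3 rose in the cortex, and in the thalamus 0 passed by limma, 1 at an unadjusted p under 0.05, 1 by edgeR and 1 by DESeq2. Of 8 endothelial genes, 1 rose in the cortex and 3 in the thalamus (0 and 5 without those libraries). Of 7 pericyte and fibroblast genes, 6 and 2 rose (5 and 4 without those libraries), and of 5 ependymal genes, 4 and 1. These counts of rises stand beside 14.3% of all loci tested in the cortex and 14.5% in the thalamus. Of 11 neuronal genes, the cortex had 8 that fell and the thalamus 10, beside 14.9% and 20.9% of all loci tested. Of the 12 choroid plexus genes, 0 passed in either region by limma, edgeR or DESeq2, with 1 in the cortex and 0 in the thalamus at an unadjusted p under 0.05. With the 6 libraries high in these genes left out, 1 of 10 tested rose in the cortex and 4 of 12 in the thalamus. The part of these cell types in the levels of Tmem176a and Tmem176b was not tested.

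Of the MS4A family, the relatives of both genes, few members were measurable, and most of these rose. Of 21 names listed, 17 were found, 3 of these were at 0 in all libraries, and 4 passed the filter in the cortex and 3 in the thalamus. In each region 3 rose by limma with Benjamini-Hochberg adjustment, while Ms4a7 in the cortex did not pass (0.95, adjusted p = 0.0825). These counts stand beside rises at 14.3% of all loci tested in the cortex and 14.5% in the thalamus. Ms4a6b rose by 1.06 in the cortex (standard error 0.22, adjusted p = 0.00268) and by 1.28 in the thalamus (standard error 0.23, adjusted p = 0.000596). Ms4a6bl rose by 0.96 and 1.00, and Ms4a6a by 0.65 and 0.99, all on the log2 scale. Beside these stand the members' differences, 0.73 and 0.84 (cortex) and 1.13 and 1.30 (thalamus). The cortex call of Ms4a6bl was lost, leaving 2 of 4, without the 6 libraries high in choroid plexus genes (adjusted p = 0.064, limma). The group means of these MS4A genes ran from 19.0 to 125 normalized counts.

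Most genes of the inflammasome, which Tmem176b is known to restrain, rose in the thalamus. In the cortex 10 of 18 tested genes rose and 1 fell, with a median log2 difference of 0.41. In the thalamus 15 of 18 rose, with a median of 0.79. Of all loci tested, 14.3% rose and 14.9% fell in the cortex, and 14.5% rose in the thalamus. Without the 6 libraries high in choroid plexus genes, 8 rose in the cortex and 15 in the thalamus. The largest rises in the cortex were those of Txnip (0.93, standard error 0.11, adjusted p = 4.03e-05, limma), which binds NLRP3 under oxidative stress, Aim2 (0.90) and the adaptor Pycard (0.80). In the thalamus they were those of the DNA sensor Aim2 (1.43, standard error 0.21, adjusted p = 0.000144, limma), the cytokine gene Il1b (1.28) and Nlrc4 (1.25). Nek7, which licenses NLRP3, fell by 0.25 in the cortex (standard error 0.078, adjusted p = 0.027, limma), but that call was lost in 7 of 25 alternatives. The Il1b call in the thalamus was lost without the 6 libraries high in choroid plexus genes (adjusted p = 0.0739, limma). The members' differences were above the median of this list in each region.

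Of the MHC class II list, which covers the presentation of peptides to CD4 T cells, most tested genes rose. Of 12 listed genes, 7 passed the filter and were tested in each region. In the cortex 5 of 7 tested genes rose, with a median of 0.99, and in the thalamus 7 of 7, with a median of 1.82. Of all loci tested, 14.3% rose in the cortex and 14.5% in the thalamus. The largest rises in the cortex were those of RT1-Bb (1.65, standard error 0.35, adjusted p = 0.00307, limma), RT1-Ba (1.30) and Cd74 (1.04), the invariant chain. In the thalamus they were RT1-Bb (2.41, standard error 0.41, adjusted p = 0.000441, limma), RT1-Ba (2.23) and RT1-DOb (2.18). RT1-Bb and RT1-Ba encode the chains of one class II molecule. Leaving out the 6 libraries high in choroid plexus genes, 5 and 7 genes rose with medians of 0.72 and 1.92, where Tmem176a stood at 0.72 and 1.11 and Tmem176b at 0.83 and 1.31. In TBI rats the summed level of the list ranged from 2969 to 10102 in the cortex and from 5270.4 to 12042 in the thalamus. Tmem176b stayed within 4423 to 5355 and 7713 to 9291. The cortex range leaned on its highest values, since in the TBI cortex Cd74 had a mean of 2796 and a highest value of 5543. For RT1-Da these were 883 and 1944.

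Of genes tied to lymphoid cells that make interleukin-17, few were measurable. Of 12 listed genes, 5 were tested in each region, and 1 rose and 1 fell in the cortex and 1 rose and 2 fell in the thalamus. These counts are near the shares over all loci (14.3% and 14.9%, and 14.5% and 20.9%), and neither cortex call held when the 6 libraries high in choroid plexus genes were left out. Rora, a nuclear receptor that neurons also express, fell by 0.38 in the cortex (standard error 0.11, adjusted p = 0.0142, limma) and by 0.58 in the thalamus (standard error 0.16, adjusted p = 0.01). Il17re, an interleukin-17 receptor gene, rose by 0.76 in the cortex, a call lost in 12 of 24 alternatives, with an adjusted p of 0.295 with the rat as block (limma). The transcription factor Maf rose by 0.60 in the thalamus, and the receptor Ahr fell by 0.31 there, a call lost in 11 of 25 alternatives. The cortex call of Rora was lost without the 6 libraries high in choroid plexus genes (adjusted p = 0.0743, limma). The cytokine genes Il17a and Il17f were at 0 in all libraries.

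Other intracellular or immune-cell ion channels moved in both directions. In the cortex 6 of 16 tested genes rose and 1 fell, with a median of 0.06, beside 14.3% and 14.9% of all loci. In the thalamus 7 of 15 rose and 4 fell, with a median of 0.08, beside 14.5% and 20.9% of all loci. Kcnn4, a calcium-gated potassium channel of immune cells, rose by 1.02 in the cortex (standard error 0.25, adjusted p = 0.00606, limma) and by 2.72 in the thalamus (standard error 0.21, adjusted p = 6.73e-07). Hvcn1, a proton channel of phagocytes, rose by 0.81 and 1.66, and the lysosomal channel Tpcn2 by 0.55 and 0.52. The ATP-gated channel P2rx7 rose by 0.41 in the cortex and 0.55 in the thalamus. Among the falls in the thalamus were Tmem38a (-0.39), Mcoln1 (-0.36) and Clcn5 (-0.33), of the endoplasmic reticulum, lysosome and endosome. Clcn3 fell by 0.18 in the cortex, a call lost in 15 of 25 alternatives. Without the 6 libraries high in choroid plexus genes, only 3 channels rose in the cortex, and the calls of Tpcn2 in the cortex (adjusted p = 0.0616, limma) and Clcn5 in the thalamus (adjusted p = 0.127) were lost.

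**Figure D5:**
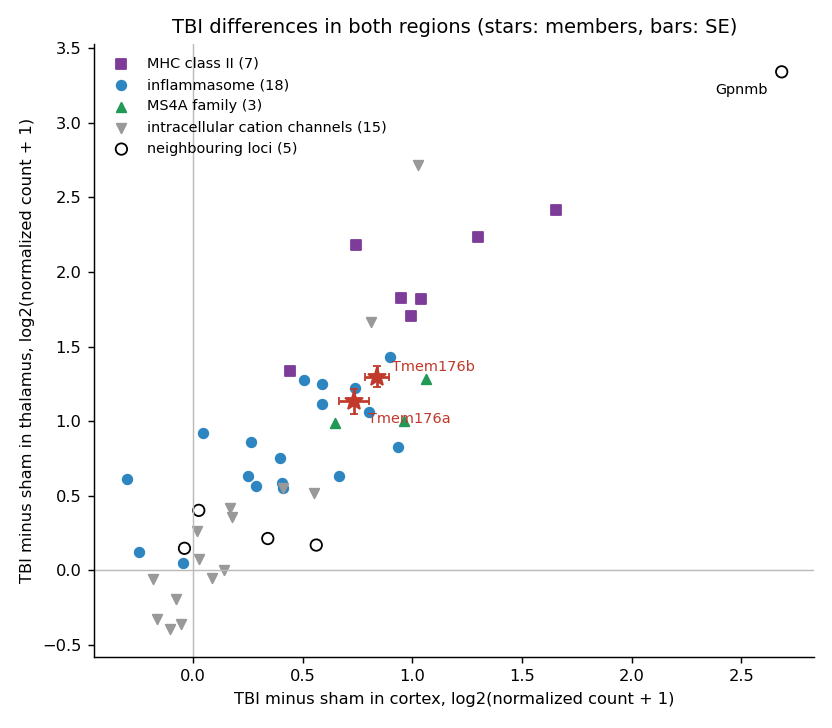
TBI minus sham differences on the scale of log2(normalized count + 1) in the cortex (horizontal) and the thalamus (vertical) for genes tested in both regions, with Tmem176a and Tmem176b as stars with their standard errors. The members lie at 0.73 and 1.13 and at 0.84 and 1.30, among the inflammasome and MS4A genes, below most MHC class II genes and above most channels and neighbouring loci.

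The nearest loci around the pair differed from it, while Gpnmb, the farthest of those read on the right, rose more. The 5 nearest named loci to the left are GTPases of immunity-associated proteins, Gimap4, Gimap6, Gimap7, Gimap1 and GIMAP5, from 123049 down to 63504 bases away. Their group means ran from 6.33 to 251 normalized counts. In the cortex Gimap7 rose by 0.56 (standard error 0.13, adjusted p = 0.00578, limma), a call lost without the 6 libraries high in choroid plexus genes (adjusted p = 0.0601), and in the thalamus GIMAP5 rose by 0.40 (standard error 0.11, adjusted p = 0.0137). In neither region did the other Gimap genes tested pass, with log2 differences from -0.04 to 0.42. To the right, Aoc1, Doxl1, Doxl2 and Svs1 had means of at most 1.50 normalized counts in every group and were at or under the floor of 3 fragments in 22 to 24 of the 24 libraries. The fifth, Gpnmb, 231236 bases away, rose by 2.68 in the cortex (standard error 0.18, adjusted p = 5.85e-07, limma) and by 3.34 in the thalamus (standard error 0.14, adjusted p = 3.54e-09). Gpnmb is a lysosomal glycoprotein of activated microglia. The pair thus sits between Gimap genes and loci near or at 0, with Gpnmb beyond these. In each region 1 Gimap gene rose, beside 14.3% of all loci tested in the cortex and 14.5% in the thalamus.

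The signed TBI difference, thalamus minus cortex, was positive at 2.72% of the 15678 loci tested and negative at 4.54% past the threshold of the limma interaction. Against this background, 7 of 18 inflammasome genes, 9 of 16 microglial genes and 3 of 16 channels had a positive difference of this kind. These include Nek7, which fell in the cortex (-0.25) and stood at 0.125 in the thalamus, where it did not pass. The 1 channel with a negative difference was Mcoln1, which fell in the thalamus (-0.36) and stood at -0.06 in the cortex. Without the 6 libraries high in choroid plexus genes, the counts of positive differences were 1, 3 and 1. Of 7 MHC class II genes, 0 passed by limma, 5 at an unadjusted p under 0.05, 1 by edgeR and 1 by DESeq2, and of 4 MS4A genes 0 passed by each of these. Without those 6 libraries, 2 MHC class II genes passed with a positive difference, at a list median of 1.20, and 0 MS4A genes passed. By its median, the difference between regions was 0.38 for the inflammasome list, 0.44 for the microglial list and 0.87 for MHC class II, beside 0.40 and 0.46 for Tmem176a and Tmem176b. In the thalamus 59.0% of all calls were falls, and this share was 48.0% with upper quartile scaling and 44.9% with edgeR. Of the interaction calls 62.5% were lower in the thalamus, 53.0% with upper quartile scaling and 48.1% with edgeR.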

How the data were processed

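The authors prepared stranded polyadenylated RNA libraries, aligned the reads with TopHat2 2.0.11 and Bowtie2 2.2.2 and assembled them with Cufflinks 2.2.1. They deposited 1 table of signal values per locus, in which the fragments of a locus were scaled by 1 factor per library, and 1 annotation table with names and positions. Loci with no name (15693, holding 1.90% to 2.23% of the values) were left out. All low values were whole multiples of 1 step per library (tolerance 0.05 fragments), which gave the fragments; dividing by a size factor set on all genes can shift every gene together. Some list genes are not reported here. The members, the lists and the rules were chosen with earlier results of these data known.

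Within regions, TBI was set against sham with limma 3.58.1 (R 4.3.3; eBayes with trend) on log2(normalized count + 1) for named loci with a mean of at least 10, with Benjamini-Hochberg adjustment over all loci tested and a threshold of 0.05. The regions were compared by an interaction over 24 libraries, with SE and no p for the members. The relations within groups were tested by exact permutation. The genes named are the members, the 5 named loci on each side, up to 3 rises and 3 falls per list and region, the 8 loci most like each member over all libraries and the 5 most like it in deviations from group means. Marker genes at low levels and genes whose region differences passed are named beside these, as are Zbtb46 and Itgae, all after their values were seen.

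The rats pair the regions, since both came from the same animals: the deviations of a rat's libraries correlated with a median of 0.187 (0.00393 to 0.569, over 0.1 in 10 of 12), against -0.0332 between rats. Alternatives were TMM, upper quartile and median-of-ratios scaling, pseudocounts of 0.1 and 5, no filter, a mean of at least 50, edgeR 4.0.16 and DESeq2 1.42.0 on recovered fragments, all libraries in 1 fit, the rat as block, and leaving out each library or rat 45. The limit on the choroid plexus list (15000 normalized counts in sum) was chosen after the sums were seen. The fits were tested on simulated data. Permutations ran in numpy 2.4.6, with ranks and the adjustment of their p-values from SciPy 1.17.1, and figures in matplotlib 3.10.9.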

Additional observations from a re-analysis of the deposited data

Results flagged for a closer look

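In the sham thalamus the ratio of Tmem176b to Tmem176a was 2.34 in rat 50, against 1.98 to 2.06 in the other 5 rats, and its gap to the nearest rat made up 0.781 of the range, above Dixon's 95% limit for 6 samples. Chance alone passes about 1 group in 20 and 12 groups were examined. This library had a choroid plexus sum of 142049 normalized counts, and the part of this in the ratio was not tested.

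Among the related and neighbouring genes, 11 of 54 tested had a TBI effect that differed between the regions by the limma interaction, and 13 did with the rat as replicate block. On the log2 scale the thalamus minus cortex difference was 0.529 for Nlrp3 and 1.694 for Kcnn4, and both calls held under 36 of 36 alternatives. It was 0.600 for Casp1, 0.486 for Casp4, 0.662 for Nlrc4, 0.371 for Nek7, 0.915 for Il1rn, 0.875 for Il1a, -0.303 for Mcoln1, 0.247 for Trpm2 and 0.856 for Hvcn1. These 9 calls were lost without the 6 libraries high in choroid plexus genes. The calls of Il1rn, Trpm2 and Hvcn1 held under only 18, 15 and 14 of 36 alternatives.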

How the results depend on the processing

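The differences of Tmem176a and Tmem176b kept their direction under all alternatives, from 0.70 to 0.77 and 0.81 to 0.87 in the cortex and from 1.09 to 1.19 and 1.26 to 1.35 in the thalamus. With the rat as replicate block, the differences between regions were unchanged at 0.40 and 0.46, and 593 loci were higher and 1019 lower by the interaction. Without the 6 libraries high in choroid plexus genes, a setting chosen after seeing the data that also leaves fewer samples, calls were 1223 higher (of 2223) and 939 lower (of 2308) in the cortex, and 194 higher (of 427) and 228 lower (of 711) by the interaction.

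With TMM scaling, r of Tmem176a with Tmem176b in the TBI cortex no longer passed (0.878). Nor did r to the microglial mean for Tmem176a in TBI cortex (0.884) and TBI thalamus (0.905), or for Tmem176b in TBI cortex (0.898), sham thalamus (0.905) and TBI thalamus (0.873). With fragments scaled to the library total, r of the pair in the sham thalamus passed (0.878). The cause was not tested. Leaving out 1 rat at a time, which leaves 5 rats and fewer permutations, r of the pair ranged from 0.535 to 0.803 in sham cortex, 0.862 to 0.944 in TBI cortex, 0.757 to 0.992 in sham thalamus and 0.799 to 0.946 in TBI thalamus. Between regions of a rat, r ranged from -0.851 to 0.061 and -0.284 to 0.239 for Tmem176a in sham and TBI rats, and from -0.678 to -0.0496 and -0.476 to 0.237 for Tmem176b. To the microglial mean, in the order sham cortex, TBI cortex, sham thalamus and TBI thalamus, r ranged from -0.374 to 0.712, 0.869 to 0.984, 0.796 to 0.936 and 0.804 to 0.959 for Tmem176a, and from -0.688 to 0.393, 0.889 to 0.953, 0.825 to 0.986 and 0.812 to 0.903 for Tmem176b. With 6 rats a group, weak relations cannot be detected.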

Other observations

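The ratio of Tmem176b to Tmem176a, on the log2 scale, ran together between the regions of the same sham rats, a relation noticed after the values were seen. It is therefore given as a description, with no test. Over 6 sham rats r was 0.86 and rho was 0.94. Without rats 26 and 50, the farthest from the median in the cortex, r was 0.72 over 4 rats. In the 6 TBI rats r was -0.18 and rho -0.20. Whether sham and TBI rats differed in this was not tested.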
